A study of Sus scrofa with 6 samples.

Results

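A group of 6 genes of inflammatory signalling was followed in pig cartilage and in cultured chondrocytes: the chemokines CXCL8, CXCL2, CCL5 and CXCL14, the cytokine LIF, and NFKBIA, the inhibitor that closes the NF-kappa B feedback loop. They were taken by gene symbol from the platform annotation of an Affymetrix porcine expression array. The 6 genes had 7 probe sets, of 6765 genes and 10069 probe sets with a single symbol, and CXCL14 alone had more than 1. All 6 passed the filter on low signals that left 5601 genes for comparison.

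Total RNA was measured on 6 arrays, 1 array for each condition. The conditions were native growth plate cartilage, the cartilage in which long bones lengthen, native articular cartilage, which lines the joint, and chondrocytes isolated from each of them and cultured to day 10 or day 20 of differentiation. Per the labels, the cultures were primary chondrocytes freed with collagenase and kept in DMEM/Ham's F12 with serum and antibiotics at 37 °C under 5% oxygen and 5% carbon dioxide, with no further supplements. The labels used here give no age, sex or breed, and do not say whether arrays share an animal or a pool of animals. The culture groups therefore differ from native tissue in isolation, serum, oxygen and time together, and these cannot be told apart.

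Chemokines are small secreted proteins that draw leukocytes along a gradient. CXCL8 and CXCL2 act on neutrophils, CCL5 on T cells and monocytes, and chondrocytes are known to secrete them when interleukin 1 or tumour necrosis factor reaches them. Those cytokines free NF-kappa B, a transcription factor held in the cytoplasm by inhibitors such as NFKBIA, and NFKBIA is itself one of its target genes, so its transcript is a common readout of the pathway. LIF is a cytokine of the interleukin 6 family that signals through JAK kinases and STAT3. CXCL14 is a chemokine of many resting tissues, with no need of inflammation for its expression.

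Values are linear signal intensities, and signals under 36.1, the floor, were raised to it before ratios were taken. A ratio with its lower array under the floor is written "at least". Of the 6 arrays 1 stood apart. The native articular array had a median signal of 59.5 where the others had 67.5 to 71.5, with a log2 median at -0.19 from the mean of the arrays, and its mean Pearson correlation with the other arrays over all genes compared was 0.889, against 0.930 to 0.939. Its immediate early genes, which respond within minutes to handling and other stimuli, summed to a signal of 55781, against 12743 to 21078 elsewhere. All 6 of the chondrocyte markers present lay above the floor on every array, among them COL2A1 (1164 to 2929) and ACAN (6596 to 15883). They were not chosen to tell growth plate from articular cartilage, so they do not check those labels. SOX9, named after its values were seen, had 175, 125 and 118 on the growth plate arrays. On the articular arrays it had 982, 81.0 and 76.8. As no condition was replicated, a ratio of 1 array to another has no replicate check. The p-values below come from limma, in an additive model whose residual is the interaction of tissue with stage.

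The neutrophil chemokines and NFKBIA shared a pattern. Their signals were highest in native articular cartilage, second highest in native growth plate, and lower in every culture. CCL5 was above the floor only in articular samples, LIF stood out only in native articular cartilage, and CXCL14 ran the other way, with its highest signals in culture. No difference of any of the 6 genes passed the test with all 6 arrays fitted.

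CXCL8, the interleukin 8 gene, had signals of 550 in native growth plate, 49.8 at day 10 and 109 at day 20. In articular samples it had 3084, 34.8 and 91.2, the day 10 value lying just under the floor. Both native arrays were above all 4 cultured arrays. From native tissue to culture, CXCL8 in growth plate cells was 11.0-fold lower at day 10 and 5.05-fold lower at day 20, and in articular cells at least 85.4-fold and 33.8-fold lower. Day 20 was 2.19-fold above day 10 in growth plate cultures and at least 2.52-fold above it in articular ones, at levels still well under the native ones. The tissues were 5.60-fold apart in the native pair and close in culture, with growth plate at least 1.38-fold higher at day 10 and 1.20-fold higher at day 20.

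CXCL2, a neutrophil chemokine of the GRO group, had signals of 207, 34.2 and 24.3 in growth plate at native, day 10 and day 20. The articular signals were 4133, 96.5 and 177. Both growth plate cultures lay under the floor, so that the gene was measurable there in native tissue alone. It was at least 5.73-fold lower than native at both days in growth plate, and 42.8-fold and 23.3-fold lower in articular cells. Growth plate was below articular at every stage, by 20.0-fold for the native pair, with bounds of at least 2.67-fold for day 10 and 4.91-fold for day 20. The separation of native from cultured arrays was narrow for CXCL2, since native growth plate at 207 was close to articular day 20 at 177.

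NFKBIA, which encodes the inhibitor I kappa B alpha, was well above the floor everywhere. Its signals were 1849, 383 and 387 on the growth plate arrays, and 10273, 595 and 797 on the articular arrays. Both tissues therefore had their high value in native cartilage and nearly level values over the culture days, with day 20 1.01-fold above day 10 in growth plate and 1.34-fold in articular cells. Culture was 4.83-fold and 4.77-fold below native in growth plate at day 10 and day 20, and 17.3-fold and 12.9-fold below in articular cells. Growth plate was below articular at each stage, by 5.56-fold in native tissue, 1.56-fold at day 10 and 2.06-fold at day 20.

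**Figure D1:**
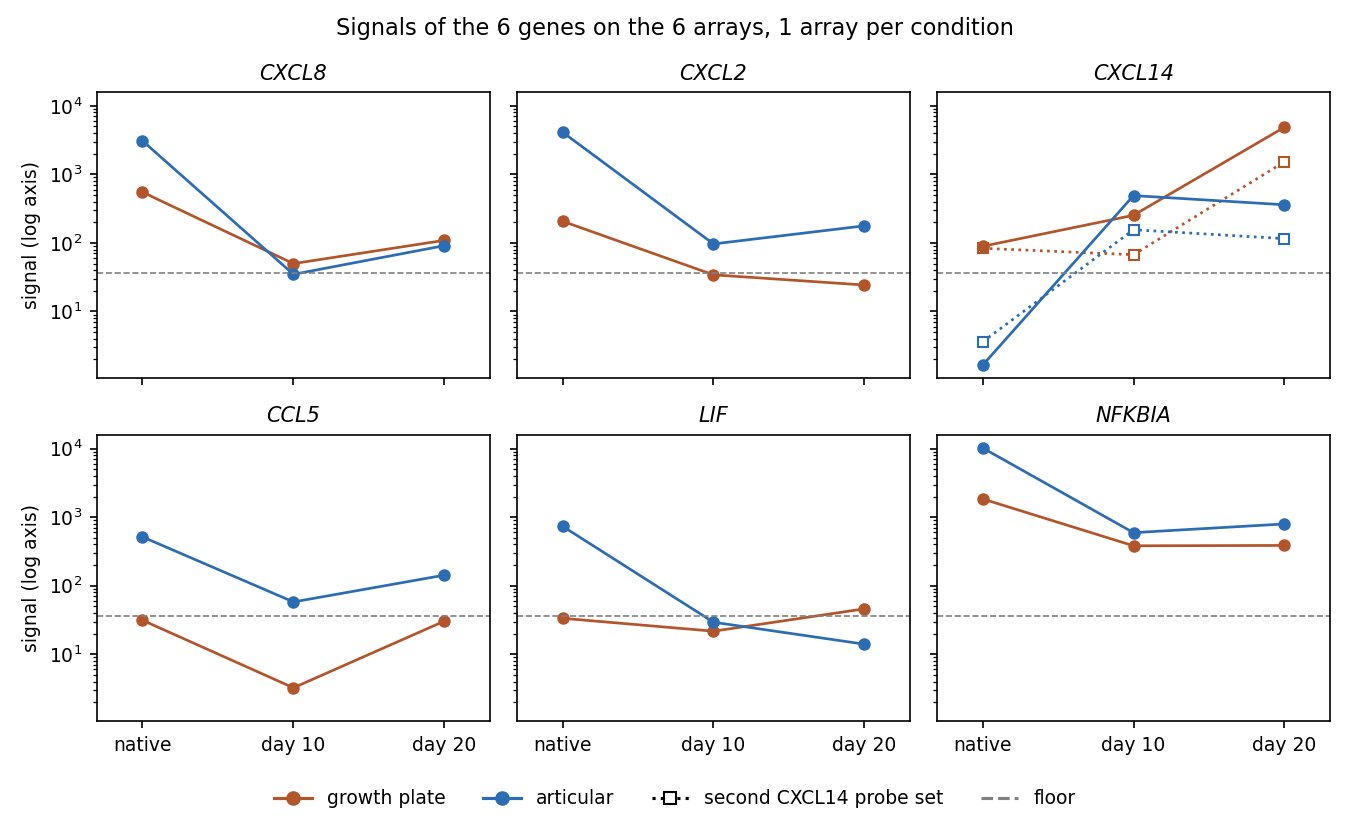
Signal of each of the 6 genes (vertical log axis, linear signal units) in native tissue and at day 10 and day 20 of culture (horizontal axis), with growth plate in orange and articular in blue, 1 array per point, and the floor of 36.1 dashed. CXCL8, CXCL2 and NFKBIA are highest in the 2 native arrays, while CXCL14 is lowest in native articular cartilage on both of its probe sets.

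CCL5, also called RANTES, was above the floor on the 3 articular arrays only. Its signals there were 516 in native tissue, 58.0 at day 10 and 143 at day 20, against 31.4, 3.24 and 30.5 in growth plate. It was 8.90-fold lower at day 10 and 3.62-fold lower at day 20 than in native articular cartilage, and 2.46-fold higher at day 20 than at day 10. Since all growth plate signals lay under the floor, no growth plate culture change could be read. The gene passed the filter through articular arrays alone, which fixed the direction of its tissue difference. The tissue ratio was at least 14.3-fold in native samples, 1.61-fold at day 10 and 3.95-fold at day 20, each as a lower bound.

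LIF was above the floor on 2 arrays, at 739 in native articular cartilage and 46.0 in growth plate culture at day 20. The other signals were 33.5 in native growth plate, 21.7 in growth plate at day 10, and 29.4 and 14.0 in articular cells at day 10 and day 20. Native articular LIF was thus at least 20.4-fold above native growth plate and above either articular culture. Among the growth plate arrays only day 20 gave a ratio, at least 1.27-fold above native tissue.

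CXCL14 had 2 probe sets, and the brighter was used. Its signals were 89.0, 253 and 4873 on the growth plate arrays, and 1.64, 490 and 360 on the articular arrays. The other probe set read 83.4, 67.3 and 1525 on the growth plate arrays, and 3.59, 155 and 115 on the articular arrays. Both were lowest in native articular cartilage and highest in growth plate culture at day 20, but they disagreed on growth plate at day 10, which was above native on the first and below it on the other. On the probe set used, growth plate day 20 was 54.7-fold above native and 19.3-fold above day 10, while day 10 was 2.84-fold above native. Articular cultures were at least 13.6-fold above native at day 10 and at least 9.96-fold at day 20, with day 20 1.36-fold below day 10. Between tissues, growth plate was at least 2.46-fold higher in native samples, 1.94-fold lower at day 10 and 13.5-fold higher at day 20, so the direction changed with the stage.

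Set against all 5601 genes, differences of this size were uncommon. In articular cells at day 10, 5 of the 6 genes, all but CXCL14, were at least 4-fold below native, as were 1.75% of all genes. At day 20 it was 4 of 6, without CCL5, against 1.79%. In growth plate CXCL8, CXCL2 and NFKBIA were 4-fold below native at day 10, with 0.982% of all genes, and at day 20, with 0.661%. For CXCL2 this depended on the floor, since its log2 change was -0.61 at both days with a floor at the 60th percentile. The same 3 genes passed 4-fold in both tissues, where 20 genes (0.357%) did so at day 10 and 11 genes (0.196%) at day 20. Among those 11 were also CHI3L1, a secreted glycoprotein of inflamed cartilage, TAP1, a peptide transporter of antigen presentation, and the metallothionein MT-2B, named here after their values were seen. CHI3L1 had signals of 2984, 81.6 and 89.3 on the growth plate arrays, and 15448, 1193 and 1395 on the articular arrays. Both native arrays lay above all cultured ones for CXCL8, CXCL2 and NFKBIA, a pattern that 10.7% of all genes had.

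CXCL14 was the only gene of the 6 that was 4-fold above native in any culture. It passed that size in growth plate at day 20 with 0.964% of all genes, and in articular cells with 4.46% at day 10 and 4.37% at day 20. It was also 4-fold higher at day 20 than at day 10 in growth plate, as were 1.5% of genes, and 4-fold higher in growth plate than in articular cells at day 20, as were 0.393%. Both native arrays lay below all cultured ones for CXCL14 on the probe set used, and for 12.9% of all genes. On its other probe set native growth plate, at 83.4, was above growth plate day 10, at 67.3. CXCL2 read at least 4-fold lower in growth plate than in articular cells at day 20, with 0.75% of genes. CCL5, also under the floor in growth plate, was at least 3.95-fold lower, so it may pass 4-fold as well. The floor set both bounds. With a floor at the 25th percentile CCL5 had a log2 difference of -2.23, and with one at the 60th CXCL2 had -0.38.

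**Figure D2:**
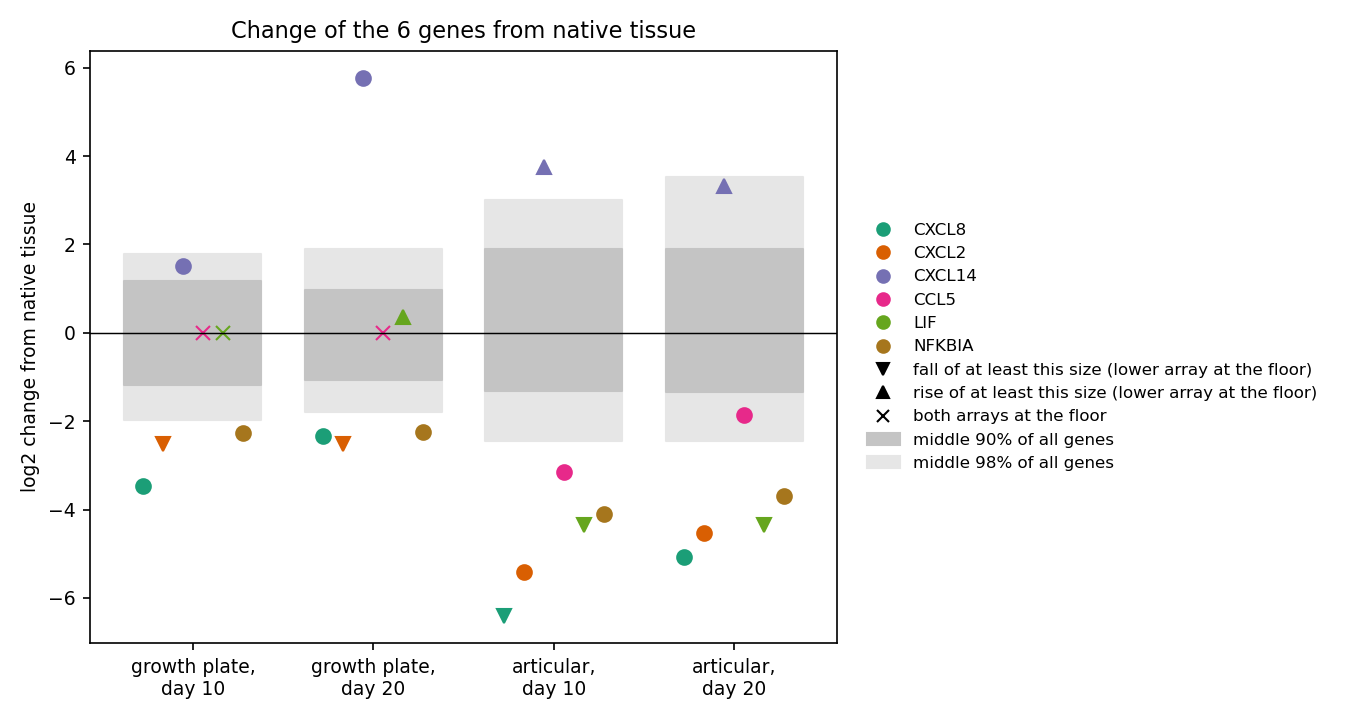
Log2 change of each of the 6 genes from native tissue (vertical axis) in each tissue and day (horizontal axis), 1 array against 1 array, with grey bands for the middle 90% and 98% of the 5601 genes. Triangles are bounds with the lower array under the floor, and crosses have both arrays under it. CXCL8, CXCL2 and NFKBIA lie below the bands in all 4 columns, and CXCL14, on the probe set used, lies above zero in all 4.

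In native tissue the contrast between the cartilages took in most of the group. CXCL8, CXCL2, CCL5, LIF and NFKBIA each read at least 4-fold below articular cartilage on the growth plate array, as did 68 genes, or 1.21%. The direction for CCL5 was fixed by the filter, which it passed through articular arrays alone. The median log2 difference, growth plate minus articular, was -3.16 over the 6 genes and 0.00 over all genes tested. In the same direction, native articular cartilage was at least 4-fold above each of the other arrays for CXCL8, CXCL2, LIF and NFKBIA, and for 0.607% of all genes. These values rest on the array that stood apart. Centring each array on its median could not turn these directions, since it raises the native articular array, whose median was the lowest. With quantile normalization the native log2 differences were -2.44 for CXCL8, -4.24 for CXCL2, -3.96 for CCL5, -4.42 for LIF and -2.25 for NFKBIA. The pan-leukocyte gene PTPRC was under the floor on all 6 arrays, at 13.4 in native articular cartilage, as were the T cell receptor genes CD3D, CD3E and CD3G.

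The wider marker lists gave a mixed picture in that array. None of 6 leukocyte and none of 9 macrophage markers was above the floor there, and their summed signals were 84.1 and 86.5, the lowest of the 6 arrays, against 99.4 to 230 and 158 to 276. T and NK cell markers summed to 266 against 74.1 to 157, with 2 of 11 above the floor and CD247 highest at 99.5. Neutrophil markers summed to 133 against 31.9 to 74.4, with 2 of 5 above the floor and S100A9 at 49.4. Endothelial markers summed to 522 against 165 to 324, with 3 of 8 above the floor and PECAM1 at 277. Their part in the chemokine values was not tested. In bulk RNA, fewer cells of a type and less RNA per cell cannot be told apart.

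The brightest macrophage marker, CD86, read 3.81 in native articular cartilage and 155 and 179 in the day 20 cultures of growth plate and articular cells. CORO1A, of leukocytes, ran from 16.6 in native growth plate to 126 in articular cells at day 10. JCHAIN, of B cells, did not exceed 49.1, BGLAP, of osteoblasts, 64.6, ACP5, of osteoclasts, 63.5, and CKM, of muscle, 43.1. The globin gene HBB read 234 to 610 and was 398 in native articular cartilage.

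Fitted over all arrays, with arrays under the floor entered at the floor, the mean of the culture days was below native by a log2 difference of -4.32 ± 0.66 (SE) for CXCL8, -3.75 ± 0.61 for CXCL2 and -3.08 ± 0.40 for NFKBIA. The limma adjusted p was 0.101 for each of the 3, which did not pass 0.05. LIF, at -2.09 ± 0.98 (adjusted p = 0.299), and CCL5, at -1.25 ± 0.62 (adjusted p = 0.329), were further from it. CXCL14 was above native by 3.59 ± 0.89 (adjusted p = 0.148). By size alone, 5 of the 6 genes were at least 2-fold lower in culture on average, as were 3.84% of all genes, and CXCL14 was 2-fold higher, as were 6.5%. The test itself called 0 of 5601 genes lower (0%) and 0 higher in culture, though 493 genes that were lower and 596 that were higher had an unadjusted p under 0.05.

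The lack of calls depended on which arrays were fitted. NFKBIA was called lower in culture in each of the 6 limma fits that left out 1 array. CXCL8 was called in 5, all but the fit without articular day 10, and CXCL2 in 4, all but that fit and the fit without articular day 20. CXCL14 was called higher in the fits without native growth plate (log2 difference 3.55) and without growth plate day 10 (4.47). The same held without growth plate day 20 (2.69) and without articular day 20 (4.49). The share of genes called higher alone was not counted for these fits. The share of genes called lower was 7.52% without native growth plate, 1.9% without native articular cartilage, 0.794% without growth plate day 20, 0.144% without growth plate day 10, 0.108% without articular day 10 and 0.144% without articular day 20. Such fits have 1 residual degree of freedom, and the prior drawn from all genes carries most of the weight. Where a native array is left out, the lone native array is assumed to vary like the cultured ones, which alone supply the residual, so these p-values hold nothing on the spread of native tissue.

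Without native articular cartilage, the difference rested on native growth plate alone. CXCL8 was then at -2.90 (adjusted p = 0.00572), NFKBIA at -2.26 (adjusted p = 0.00572) and CXCL2 at -2.50 (adjusted p = 0.0147) by limma, each smaller than with all arrays. CCL5 was at 0 and LIF no longer passed the filter. Without native growth plate, the same limma comparison gave -5.75 for CXCL8, -4.98 for CXCL2, -4.36 for LIF, -3.90 for NFKBIA and -2.50 for CCL5, and all 5 were called, with the array that stood apart as the only native sample. Over 15 alternatives the adjusted p by limma ran from 5.96e-07 to 0.301 for CXCL8 and from 3.39e-06 to 0.302 for CXCL2, and over 16 from 9.07e-07 to 0.276 for NFKBIA.

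**Figure D3:**
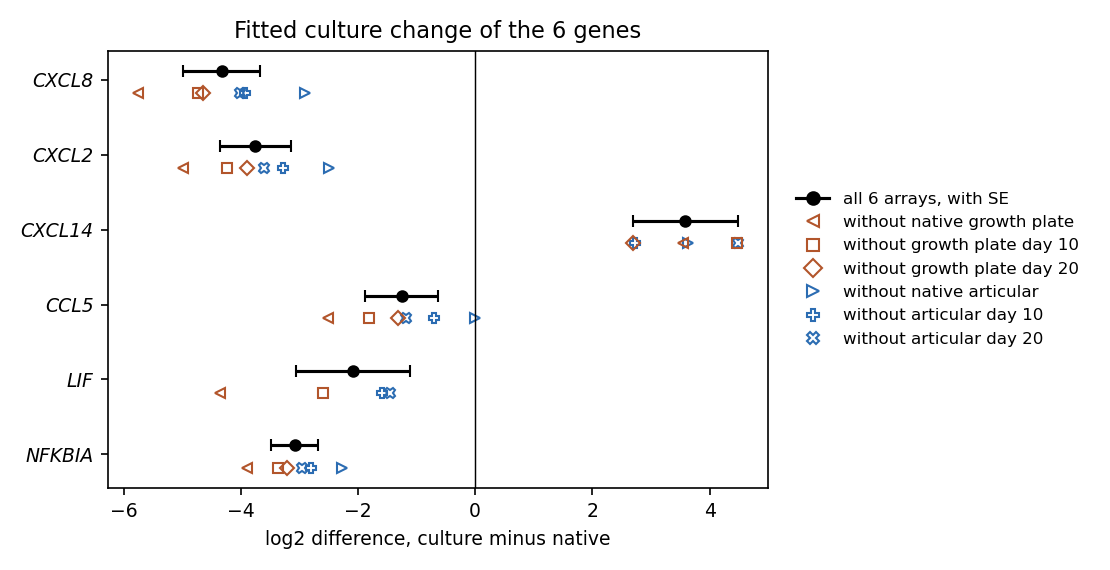
Fitted log2 difference, culture minus native (horizontal axis), of the 6 genes (vertical axis), with all 6 arrays as black points with SE and with 1 array left out as open symbols. CXCL8, CXCL2 and NFKBIA stay below zero and CXCL14 above it in every fit, while CCL5 reaches zero without native articular cartilage.

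The fitted tissue difference, growth plate minus articular over the 3 stages, was -2.68 ± 0.57 for CXCL2 (adjusted p = 0.367), -2.17 ± 0.59 for CCL5 (adjusted p = 0.409) and -1.38 ± 0.38 for NFKBIA (adjusted p = 0.409). LIF was at -1.33 ± 0.92 (adjusted p = 0.610), CXCL8 at -0.59 ± 0.62 (adjusted p = 0.723) and CXCL14 at 1.37 ± 0.84 (adjusted p = 0.580). By limma none passed, where 0.0179% of all genes were called lower and 0.0357% higher in growth plate. By size alone CXCL2, CCL5, LIF and NFKBIA passed 2-fold on the lower side, with 2.23% of all genes, and CXCL14 2-fold higher, with 3%. CCL5 passed the filter through articular arrays alone, which fixed its direction, so its place in that count carries no weight. The CXCL2 difference was -1.86 without native growth plate and -1.84 without native articular cartilage. In these fits the 4 cultured arrays set the tissue difference. Both fits called CXCL2 lower along with many other genes over the whole array, so the call does not set CXCL2 apart from them. The shares of genes called given above belong to the fit with all arrays. Both growth plate cultures entered at the floor and added no spread of their own, and without native growth plate CXCL2 passed the filter through articular arrays alone, which fixed its direction. Over 15 alternatives its adjusted p by limma ran from 0.00724 to 0.589.

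The culture days differed less. Day 20 was above day 10 by 1.23 ± 0.76 for CXCL8 (adjusted p = 0.508) and by 1.91 ± 1.03 for CXCL14 (adjusted p = 0.448), both at least 2-fold, as were 4.91% of all genes. By limma no gene of 5601 was called higher (0%), though 398 that were higher had an unadjusted p under 0.05. The CXCL8 difference was 1.24 without native growth plate and 1.22 without native articular cartilage. Both of these fits called CXCL8 along with many other genes over the whole array, so the call does not set CXCL8 apart from them. The CXCL14 difference came from growth plate cells, since articular cells had a lower signal at day 20. NFKBIA, at 0.22, CXCL2, at 0.44, LIF, at 0.17, and CCL5, at 0.65, stayed under 2-fold.

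The distance between native and cultured cells was set side by side in the tissues, with no test. At day 10 the articular distance exceeded the growth plate distance on the log2 scale by at least 2.95 for CXCL8, by at most 2.90 for CXCL2, whose growth plate cultures lay under the floor, and by 1.84 for NFKBIA. At day 20 the gaps were 2.74 for CXCL8, at most 2.02 for CXCL2 and 1.43 for NFKBIA. Each gap contains the native difference, so the native articular array enters all of them. For CXCL14, whose native articular signal lay under the floor, articular cells were further from native at day 10, by at least 2.25, and the order at day 20 could not be read.

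Other chemokines and their receptors were sparsely measured. Of 34 further chemokine ligands 16 were on the array and 5 passed the filter, none was called, and 3 were at least 2-fold lower in culture on average, with a median log2 difference of -1.34 where all genes had 0.06. CXCL16, a transmembrane chemokine, had 410, 155 and 341 on the growth plate arrays, and 1731, 297 and 372 on the articular arrays. CCL2, the monocyte chemokine MCP-1, had 1750, 78.8 and 375 on the growth plate arrays, and 2855, 876 and 1419 on the articular arrays, and CCL4 was highest in the native arrays too, at 107 and 162 against 42.0 to 61.9. CCL3L1 and CCL8 were above the floor in native growth plate alone, at 104 and 103. These last 4 were named after their values were seen. Of 22 chemokine receptors 8 were present and 3 passed, with no gene past 2-fold in culture on average over both tissues and a median of -0.13. CXCR4, the CXCL12 receptor, also named after its values were seen, was 141 in native growth plate and 4.70 in native articular cartilage, the opposite order to CXCL8.

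The signalling route of LIF was mixed. Of 24 genes of the LIF and interleukin 6 family, 9 were present and 7 passed, 1 of them 2-fold lower in culture, none called and the median at 0.01. That gene was SOCS1, a feedback inhibitor of JAK kinases, at 184, 39.5 and 197 on the growth plate arrays, and 829, 73.8 and 120 on the articular arrays. JAK1, the kinase joined to the shared receptor, read 3072 to 4432 and STAT3, its transcription factor, 1187 to 1996 over the 6 arrays. JAK2, a related kinase, had 1201, 404 and 246 on the growth plate arrays, and 347, 713 and 550 on the articular arrays, so its day 20 signal was below native in growth plate and above it in articular cells. IL11RA, the interleukin 11 receptor, read 192 to 692. These 4 were chosen after their values were seen.

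The NF-kappa B pathway was uneven by role. Of 24 subunits, kinases and adaptors 9 were present and 6 passed, with MYD88 alone 2-fold higher in culture and a median of -0.05. Of 18 inhibitors and feedback genes besides NFKBIA 7 were present, and all 7 passed, with a median of -0.32. ZFP36, an RNA-binding protein that destabilises cytokine messages, was the only one 2-fold lower, at 406, 185 and 315 on the growth plate arrays, and 3778, 245 and 504 on the articular arrays. NFKBIB, the sister inhibitor of NFKBIA, read 256 to 481 and the deubiquitinase CYLD 298 to 475, both named after their values were seen. Of 27 activating cytokines and receptors 16 were present and 8 passed, and TNFRSF1B, a tumour necrosis factor receptor, was the only one 2-fold lower, with a list median of -0.39. It had 292, 64.0 and 87.1 on the growth plate arrays, and 1895, 117 and 136 on the articular arrays, with a culture difference of -2.94 (limma adjusted p = 0.106). Its partner TNFRSF1A, at 874 to 1909, and the interleukin 1 receptor IL1R1, at 375 to 718, had no such native peak.

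Known target genes of NF-kappa B did not share a single direction. Of 29 listed 24 were present and 19 passed, with 6 at least 2-fold lower and 1 higher in culture, no call, and a median of -0.57. MMP3, the matrix protease stromelysin 1, was 4319 in native articular cartilage and 48.3 in native growth plate, and under the floor in all cultures. MMP1, interstitial collagenase, had 161, 29.9 and 124 on the growth plate arrays, and 807, 149 and 80.1 on the articular arrays. IRF1, an interferon pathway transcription factor, had 273, 169 and 136 against 2085, 228 and 288. PTX3, a soluble pattern recognition protein, ran the other way and was above native in every culture, as CXCL14 was on the probe set used. It had 29.6, 80.2 and 162 on the growth plate arrays, and 52.1, 666 and 2766 on the articular arrays. Its highest signal was thus in articular culture at day 20, where CXCL14 had its highest in growth plate culture. SOD2, the mitochondrial superoxide dismutase, had 2697, 542 and 1100 on the growth plate arrays, and 7405, 1130 and 1009 on the articular arrays, and was named after its values were seen.

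Immediate early genes, which NF-kappa B need not drive, shared part of the pattern. Of 27 listed 16 were present and 15 passed, 7 of them at least 2-fold lower and 1 higher in culture, none called, with a median of -0.91. For the native pair their median difference, growth plate minus articular, was -1.36, and 4 of 15 were 4-fold lower in growth plate. JUN had 518, 226 and 364 on the growth plate arrays, and 2955, 221 and 299 on the articular arrays. ATF3 had 426, 571 and 358 against 5789, 368 and 513, and NR4A2 144, 62.8 and 297 against 956, 32.4 and 174. DUSP1, a phosphatase gene, had 2630, 2988 and 3346 against 16411, 3190 and 5123. Native growth plate lay above both of its own cultures for JUN, as it did for CXCL8, CXCL2 and NFKBIA. The same order held for FOS, FOSL1, FOSL2, IER5, KLF4 and MYC. It lay between its cultures for ATF3, NR4A2, BTG2, EGR1 and GADD45A, and below both for DUSP1 and IER2. NR4A3 was under the floor in native growth plate. The genes without signals printed here were named after their values were seen. The part of these genes in the chemokine values was not tested.

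**Figure D4:**
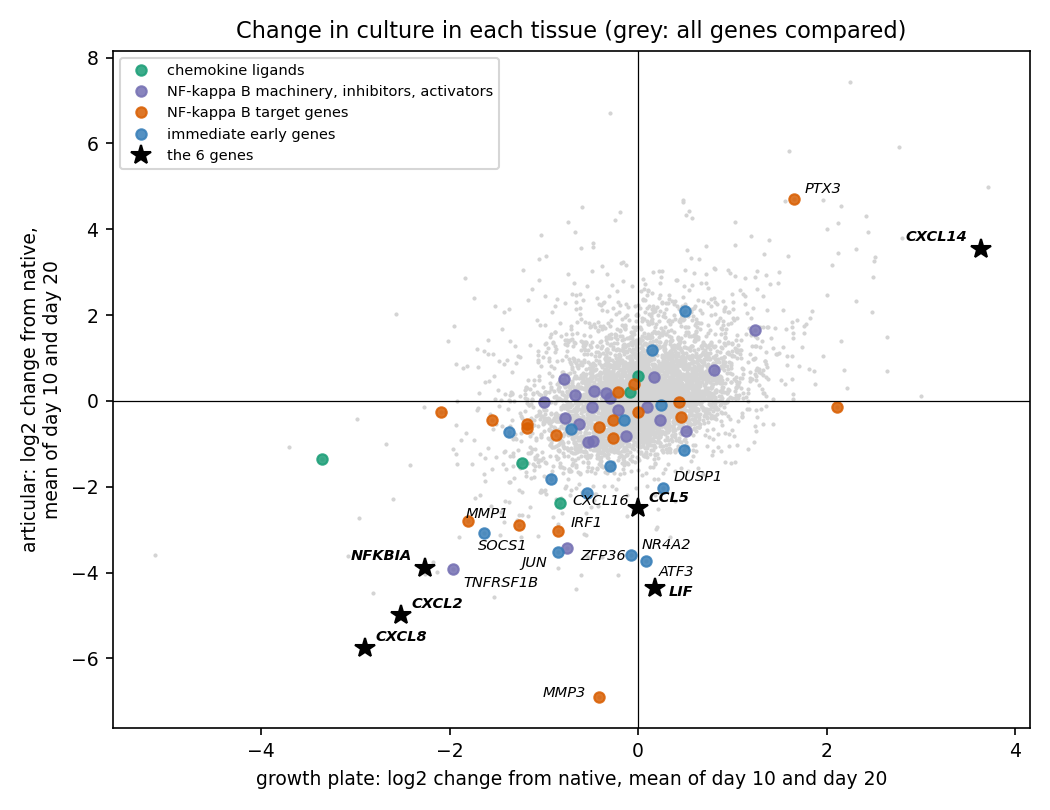
Log2 change from native tissue, mean of day 10 and day 20, in growth plate (horizontal axis) and articular cells (vertical axis), with the 5601 genes in grey, genes of the pathway lists in colour and the 6 genes as stars; signals under the floor were raised to it. NFKBIA, CXCL2 and CXCL8 lie low on both axes with TNFRSF1B near them, LIF and ATF3 are low on the articular axis only, and CXCL14 is high on both.

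Over the 6 arrays, log2 signals of NFKBIA had a Pearson correlation of 0.980 with CXCL2, 0.941 with CXCL8, 0.867 with LIF and 0.799 with CCL5, and CXCL14 ran from -0.80 to -0.56 with the others. These are descriptions over 6 points that share the native articular array as their extreme. Among 873 genes with a range of at least 4-fold, the 3 most like NFKBIA were TNFRSF1B (0.995), SLC25A37 (0.994) and FZD4 (0.990), and those most like CXCL2 were EPAS1, FZD4 and IRF1 (0.984 to 0.985). CXCL8 was followed by DTNB (0.994), RNF19B and SLC29A1 (both 0.977). LIF was followed by MMP3 (0.994), MOBP (0.991) and SFN (0.985), and CCL5 by ISG15 (0.974), DUSP1 (0.970) and FOS (0.968). ISG15, an interferon-induced modifier, was 2032 in native articular cartilage and 36.0 to 155 elsewhere. CXCL14 had no gene above 0.95, and was followed by the collagen gene COL1A2 (0.949), CLIP4 (0.916) and CLDN11 (0.915). COL1A2 had signals of 432, 381 and 2343 on the growth plate arrays, and 146, 585 and 838 on the articular arrays, and so was also highest in growth plate culture at day 20.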

How the data were processed

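Total RNA of 6 porcine samples was hybridised to Affymetrix arrays, after Trizol and RNeasy extraction and Two-Cycle labelling of 100 ng, per the labels' protocols. The authors deposited, for each probe set, a linear signal intensity, and the submitters' processing notes name GCOS 1.4. Its scaling target is not given in the sources used here. No further normalization was applied to these intensities. Detection calls were not used here, and precision is limited by the 6 arrays.

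Of 24123 probe sets 124 controls were left out. The platform annotation gave 10069 probe sets 1 symbol, 198 several and 13732 none, and 9961 of the first had a current gene ID in RefSeq, used for names only. Signals were raised to a floor at the 40th percentile (36.1) and log2 was taken. The probe set of highest mean log2 signal stood for a gene, and genes above the floor on at least 2 arrays were kept.

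An additive model of tissue and stage was fitted with limma 3.58.1 in R 4.3.3 (with the data.table package, version 1.17.8), with an intensity trend, on 2 residual degrees of freedom plus a prior of 3.74, and tested on simulated data. A call needed a Benjamini-Hochberg adjusted p under 0.05 over all genes and a 2-fold change. Pairs of single arrays were compared by a 4-fold rule, with no test. Genes of a pathway list were named if 4-fold from native in the same direction in both tissues or 4-fold apart between native tissues, up to 4 a list, and the 3 best correlated genes for each of the 6. Markers named were COL2A1, ACAN and the brightest of each other cell type. The 6 genes and the lists were chosen with earlier results of these data known. Alternatives covered scaling, floor, pseudocount, filter, probe sets, trend, fold size and each array left out.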

Additional observations from a re-analysis of the deposited data

Results flagged for a closer look

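The immediate early gene DUSP1, a phosphatase that restrains MAP kinases, differed between the tissues in the direction of its culture change. The growth plate cultures were slightly above native growth plate, with log2 changes of 0.18 at day 10 and 0.35 at day 20. The 75th percentile of all genes was 0.46 and 0.34 in those comparisons. Both articular cultures were below native articular cartilage, at -2.36 and -1.68. The culture change in growth plate exceeded that in articular cells by 2.29 on the log2 scale, as the mean of both days. The difference was not tested, each tissue's days share their native array, and the native articular array stood apart from the others.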

How the results depend on the processing

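Over the alternatives, with 6 arrays in all, the culture direction of CXCL8, CXCL2, LIF and NFKBIA (lower) and of CXCL14 (higher) did not turn where the gene could be fitted, and CCL5 came to 0 without native articular cartilage. The tissue direction of CXCL8 and LIF turned when an array was left out. CXCL8 ran from -1.11 to 0.36 on the log2 scale and LIF from -2.18 to 0.18, both at their highest without native growth plate.

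Counts of genes called by limma moved most. For culture (0 genes) they were 9 with median centring, 5 with a floor at the 60th percentile, 4 with a pseudocount, 3 with a filter on all arrays, 2 when every probe set was fitted, and 7 to 1176 with an array left out. For tissue (3 genes) they were 8 with median centring, 6 with quantile normalization, with the 60th percentile floor or with a pseudocount, 5 with a floor at the 25th percentile, 1 with the mean of probe sets or no intensity trend, 0 with no filter or the filter on all arrays, and 2 to 153 with an array left out. For day 20 against day 10 they were 0 to 513 with an array left out.

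With an array left out, culture calls among the 6 genes were most numerous without native growth plate. That fit also called the most genes over the whole array. Leaving out a native array led to calls of CXCL8 for day and CXCL2 for tissue, where calls over all genes were also most numerous. For the counts of the 6 genes below, except at 8-fold, the share of all genes at the same setting was not counted. The 60th percentile floor left 3 at least 2-fold lower in culture, 2 lower and 0 higher in growth plate and 1 higher at day 20. The filter on all arrays, which NFKBIA alone passes, left 1 lower in culture, 1 lower in growth plate and 0 higher in culture, at day 20 or in growth plate. A pseudocount left 1 higher at day 20. With an array left out, 3 to 5 were lower in culture, 2 to 5 lower and 0 to 1 higher in growth plate, and 0 to 4 higher at day 20. Past 4-fold, the 60th percentile floor left 3 lower in articular cells at day 10 and 3 lower in native growth plate than in articular cartilage. In growth plate cells it took CXCL2 short of 4-fold, at a log2 change of -0.61 at both days. A pseudocount did so at day 10, at -1.85. At 8-fold, 3 remained lower in native growth plate (0.214% of all genes), 1 in growth plate cells at day 10 (0.196%) and 0 at day 20 (0.143%). The cause of these shifts was not tested. Leaving out an array does not apply to ratios of 2 arrays.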
